A study of Mus musculus with 32 samples.

Results

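The cyclins and cyclin-dependent kinase (CDK) inhibitors that govern G1, the phase before DNA replication, were followed by RNA-seq while mouse embryonic stem (mES) cells were driven toward primitive endoderm (PrE) by GATA6. The set holds 10 genes, chosen by gene symbol: the D-type cyclins *Ccnd1*, *Ccnd2* and *Ccnd3*, the E-type cyclins *Ccne1* and *Ccne2*, the CIP/KIP inhibitors *Cdkn1a* and *Cdkn1b*, and the INK4 inhibitors *Cdkn2a*, *Cdkn2b* and *Cdkn2c*. These are 10 of the 54233 genes listed. Levels are normalized counts, which are reads per gene after scaling each sample for its depth. All 10 passed the filter on low counts, which kept the 15227 genes that reached 10 normalized counts in 4 or more samples. *Ccnd2* reached 10 in 18 of the 32 samples, *Cdkn2b* in 30, *Cdkn2c* in 31 and the other members in all 32.

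The cells were of the KH2 line, labelled C57BL/6, and all of them carried TRE:GATA6-DSREd2, a transgene that makes GATA6 and a red fluorescent protein when doxycycline (Dox) is present. Cells were taken at 0, 2, 4, 8, 16, 24, 48 and 96 h, with 4 replicates each, which gave 32 samples. Uninduced cells (0 h) grew without Dox in 2i medium, which holds inhibitors of MEK and GSK3 together with LIF. All later cells were in serum medium with LIF and received Dox at 1 µg/ml, until harvest at 2, 4 and 8 h and for 12 h, followed by medium without Dox, at 16 h and after. Any comparison with 0 h thus holds a change of medium as well as Dox, and the parts of the 2 cannot be told apart. The 96 h cells were therefore also compared with the 2 h cells, since both were in serum. The 2 h cells had left 2i medium only 2 h before, so effects of the change of medium may be in this comparison too. Time in culture and GATA6 cannot be told apart in any comparison, because uninduced cells kept in serum for the same time were not analysed here.

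D-type cyclins pair with CDK4 and CDK6, and E-type cyclins pair with CDK2. The paired kinases phosphorylate RB and its relatives, which releases E2F factors to switch on genes of DNA replication. INK4 proteins hold CDK4 and CDK6 away from D-type cyclins, whereas CIP/KIP proteins bind cyclin and CDK together and block mainly CDK2. mES cells are known for a short G1 phase and high CDK2 activity, and G1 lengthens as they differentiate. Many of these proteins are also controlled by degradation, which RNA levels do not show.

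The samples held between 3190108 and 12301732 reads on genes (median 8870662.5). Replicates 1 and 2 formed one set and replicates 3 and 4 another. The chi-square of read counts between replicates of a time point, per degree of freedom, had a median of 1.65 in the 16 pairs within a set and 12.5 in the 32 pairs between sets. Replicates 1 and 2 at 0 h differed more (6.96) than any other pair within a set (at most 2.33). All samples were kept, and values within each set are given where the sets differed. The labels do not say whether replicates came from separate cultures. The study's reporting summary states in general that replicate experiments were done independently, without naming the 2 sets. Samples of a set were closer to each other, while the main fit treats all 4 of a time point as independent. The p-values measure only the spread between these samples. *Gata6* lay between 0 and 0.806 at 0 h, between 11.4 and 17.2 at 2 h and between 1887 and 2219 at 96 h. Per the study's methods, reads from the coding region of *Gata6* come from both the endogenous gene and the transgene. The count of the gene does not separate the 2 and is no direct measure of the induced transgene. The summed level of 6 stem cell markers went from between 27924 and 29355 at 0 h to between 3345 and 4009 at 96 h, and that of 6 PrE markers from between 44.2 and 69.3 to between 30410 and 35027. Markers of trophoblast (5 genes), mesoderm and nerve (6) and fibroblasts (6) had summed levels of at most 720, 464 and 236 in any sample, and their part in the results was not tested. In bulk RNA, fewer cells with a transcript and less transcript per cell cannot be told apart.

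Among the D-type cyclins, *Ccnd1* fell and *Ccnd2* rose between 24 and 48 h. *Cdkn1a*, which encodes p21, fell from 2 h, was lowest at 24 h and was back near its starting level at 96 h. *Cdkn1b* had its highest mean at 48 h, *Ccne2* at 96 h and *Ccne1* at 16 h, with 24 h close to it. *Cdkn2a* was lower than at 0 h at all 7 later time points. Differences are given as log2 fold changes on normalized count + 1, with the standard error (SE) and the adjusted p of a limma fit over all 15227 genes, and a gene was called at an adjusted p under 0.1.

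At 2 h, 5 of the 10 genes were called against 0 h, beside 44.8% of all genes tested. Of these, 1 was higher (*Ccne2*, against 22.2% of all genes) and 4 were lower (*Ccnd1*, *Ccnd3*, *Cdkn1a* and *Cdkn2a*, against 22.6%), and none passed 4-fold, which 2.35% of all genes did. Against 0 h, 4 of the 10 were called at 4 h (48.5% of all genes) and 7 each at 8 h (49.1%) and 16 h (53.3%). There were 9 such genes at 24 h (61.8% of all genes), 8 by 48 h (73.4%) and 5 by 96 h (76.4%). The 5 at 96 h were *Ccnd2*, *Ccne2* and *Cdkn2c*, which were higher (38.0% of all genes), and *Ccnd1* and *Cdkn2a*, which were lower (38.5%). Only *Ccnd1* and *Ccnd2* also passed 4-fold at 96 h, as 19.6% of all genes did. From each time point to the next, the members called numbered 1 from 2 to 4 h (24.4% of all genes), 1 from 4 to 8 h (17.1%), 2 from 8 to 16 h (20.0%), 3 from 16 to 24 h (28.2%), 6 from 24 to 48 h (57.6%) and 5 from 48 to 96 h (54.5%). Between 2 and 96 h, both in serum, 7 of the 10 were called (77.0% of all genes). The 5 higher (37.6%) were *Ccnd2* (5.16), *Ccnd3*, *Ccne2* (0.49), *Cdkn1a* and *Cdkn2c*. The 2 lower (39.4%) were *Ccnd1* (-3.88) and *Cdkn2a*. Of the 7, *Ccnd1* and *Ccnd2* passed 4-fold (19.6% of all genes). The *Ccne2* call was lost without replicate 4 (limma adjusted p = 0.106) and in replicates 1 and 2 alone (0.111). The share of members called was above that of all genes by more than 1 gene in 10 at 8, 16 and 24 h against 0 h, and below it by as much at 96 h against 0 h and from 2 to 4 h. The members were chosen with earlier results of these data known, so these gaps are a description and no independent result. The median log2 difference of the 10 genes was -0.14 at 2 h and -0.43 at 24 h against 0 h, beside -0.03 and 0 over all genes tested. Of 70 calls in 140 tests of the members, 43 kept their direction and passed the threshold under all alternative settings that tested the gene. There were 16 settings, of which the filter at a mean of 50 normalized counts left out *Cdkn2b* and *Cdkn2c*. The other calls are named below where they bear on a statement.

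**Figure D1:**
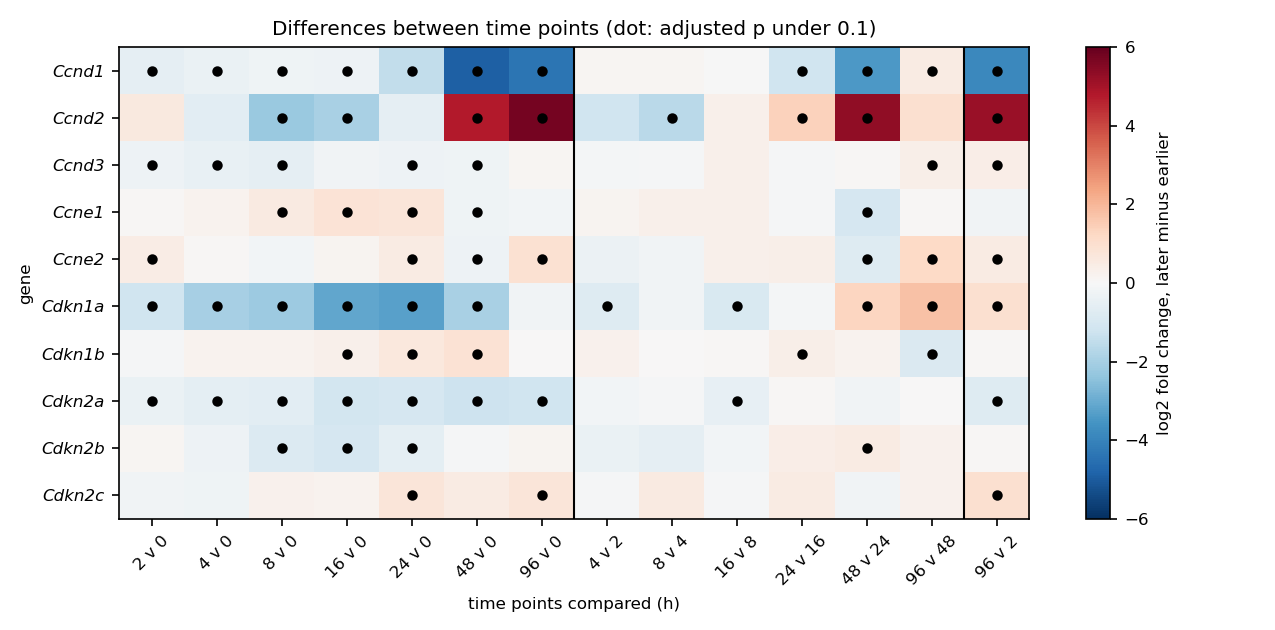
Each square is the log2 fold change of one gene (row) in one comparison of time points (column, in h), with 7 comparisons against 0 h, 6 with the preceding time point and 96 h against 2 h. Red is higher at the later time point, blue is lower, and a dot marks an adjusted p under 0.1. *Ccnd1* (-4.91) and *Ccnd2* (4.77) are dark at 48 h against 0 h, as they are at 96 h and from 24 to 48 h (-3.42 and 5.32), and *Cdkn1a* is blue from 2 to 48 h and pale at 96 h.

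*Ccnd1* encodes cyclin D1 and lies on chromosome 7 of GRCm38 (144929931 to 144939925, minus strand). Its normalized counts were 1445, 1794, 1189 and 1105 in replicates 1 to 4 at 0 h, and 1087, 1134, 801 and 820 at 2 h. Both sets were lower at 2 h, by 0.54 and 0.50 on the log2 scale, though the pooled ranges overlapped (log2 difference -0.52, SE 0.13, limma adjusted p = 0.00229).

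The level then stayed between 975 and 1242 in every sample from 4 to 16 h. The calls against 0 h at 4, 8 and 16 h were lost without replicate 2, with limma adjusted p = 0.128, 0.383 and 0.284, and those at 8 and 16 h also without replicate 1 (0.159 and 0.114). At 24 h *Ccnd1* stood at 540, 535, 447 and 425, and at 48 h at 45.2, 47.1, 39.6 and 45.4. No sample of a later time point overlapped one of an earlier time point across 16, 24 and 48 h. The log2 difference was -1.19 (SE 0.13, limma adjusted p = 9.71e-08) from 16 to 24 h and -3.42 (SE 0.13, limma adjusted p = 4.96e-18) from 24 to 48 h, and it was nearly the same in replicates 1 and 2 (-3.51) and 3 and 4 (-3.33).

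At 96 h the counts were 55.2, 60.0, 80.3 and 61.5, above all 4 samples at 48 h. This rise of 0.51 (SE 0.13, limma adjusted p = 0.00186) missed the threshold with limma-voom on whole reads (adjusted p = 0.161). The gene *LTO1* lies on the opposite strand and shares 1100 exon bases with *Ccnd1*. Its mean went from 137 at 24 h to 217 and 263 at 48 and 96 h, and whether reads were counted by strand was not given in the sources used here. The part of these reads in the low *Ccnd1* level at 48 and 96 h was not tested. In order of mean level (± SD, n = 4), *Ccnd1* stood at 44.3 ± 3.28 (48 h), 64.2 ± 11.1 (96 h), 487 ± 59.6 (24 h), 960 ± 174 (2 h), 1022 ± 32.9 (4 h), 1112 ± 126 (16 h), 1122 ± 96.8 (8 h) and 1383 ± 310 (0 h). From 2 h upward in this order, the samples of neighbouring time points overlapped.

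*Ccnd2*, which encodes cyclin D2 (chromosome 6, 127125162 to 127152193, minus strand), was the scarcest D-type cyclin per kb of exon through 24 h. At 8 h it had 3.93, 3.57, 2.33 and 0.760 normalized counts, from 13 reads over the 4 samples. At 24 h it had 4.80, 5.63, 20.3 and 16.3, at 48 h 359, 390, 492 and 525, and at 96 h 734, 736, 1010 and 962. All samples at 48 and 96 h lay far above all earlier ones.

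The log2 difference from 24 to 48 h was 5.32 (SE 0.53, limma adjusted p = 1.9e-09). As a ratio of reads scaled for depth, 48 h exceeded 24 h by 43.2-fold (95% exact interval 31.9 to 59.9, counting error only) and 8 h by 172-fold (100 to 324). From 48 to 96 h the log2 difference was 0.96 (SE 0.53), with no overlap between the samples, but it missed the threshold (limma adjusted p = 0.14). It passed with limma-voom on whole reads (6.87e-05) and within each replicate set (0.00344 and 0.0454).

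The early course of *Ccnd2* depended on the replicate set. At 0 h the counts were 34.5 and 29.2 in replicates 1 and 2, against 4.03 and 11.3 in replicates 3 and 4. Against 0 h, the 24 h level was lower in replicates 1 and 2 (-2.40) and higher in replicates 3 and 4 (1.29), and the pooled difference of -0.56 was not called (limma adjusted p = 0.39). The fall from 0 to 8 h was called in the pooled fit (-2.24, SE 0.53, limma adjusted p = 0.00104) and went the same way in both sets (-2.79 and -1.70). The calls from 4 to 8 h (-1.63) and from 16 to 24 h (1.37) were lost without single replicates, with limma adjusted p up to 0.176 and 0.331, both without replicate 4. The means ran from 2.65 ± 1.43 (8 h) and 3.37 ± 1.18 (16 h) over 10.1 ± 4.16 (4 h), 11.8 ± 7.74 (24 h), 19.8 ± 14.4 (0 h) and 30.4 ± 24.0 (2 h) to 442 ± 79.6 (48 h) and 861 ± 146 (96 h). The samples at 8 and 16 h overlapped each other. Next in this order, the samples at 4, 24, 0 and 2 h overlapped from each to the next, with a gap below 4 h, another above 2 h and one more between 48 and 96 h.

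*Ccnd3* encodes cyclin D3 (chromosome 17, 47505051 to 47599691, plus strand) and moved the least of the members. Its highest mean (1273 at 96 h) was 1.54 times its lowest (827 at 8 h). At 0 h it stood at 881, 1104, 1413 and 1452, so replicates 3 and 4 lay above replicates 1 and 2. Against 0 h it was lower at 8 h (-0.53, SE 0.13, limma adjusted p = 0.00118) in both sets. The decrease at 2 h (-0.31, SE 0.13, limma adjusted p = 0.0528) was lost without replicate 2, 3 or 4 (0.165, 0.122 and 0.181). Its small decreases at 24 and 48 h (-0.30 and -0.24) were called in the pooled fit, but replicates 1 and 2 alone gave 0.050 and 0.18, and without replicate 4 the limma adjusted p was 0.369 and 0.649. Without replicate 3 it was 0.274 and 0.496. From 2 to 96 h it rose by 0.41 (SE 0.13, limma adjusted p = 0.00512), in both sets. *Bysl*, on the opposite strand, shares 361 exon bases with *Ccnd3*, and its mean went from 784 in uninduced cells to 312 at 48 h and 738 by 96 h. Ordered by mean, *Ccnd3* stood at 827 ± 105 (8 h), 882 ± 105 (4 h), 964 ± 143 (2 h), 969 ± 70.9 (24 h), 1012 ± 125 (48 h), 1021 ± 110 (16 h), 1212 ± 271 (0 h) and 1273 ± 76.1 (96 h), and all neighbours in this order overlapped.

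**Figure D2:**
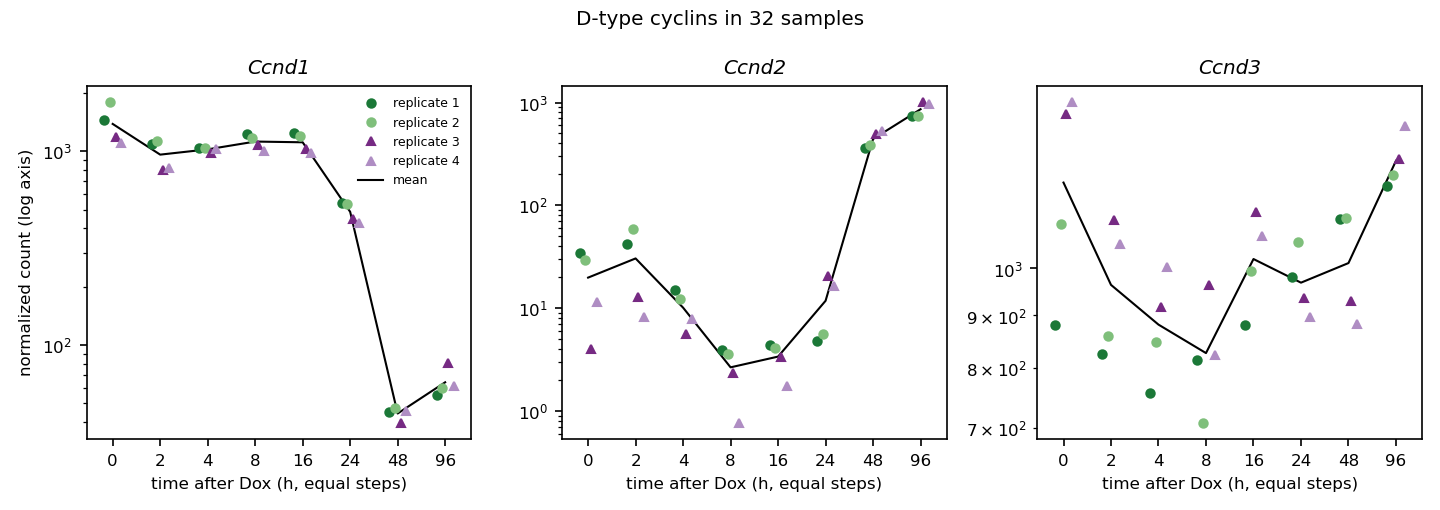
Normalized counts of the 3 D-type cyclins (log axes, each with its own range) at the 8 time points, drawn at equal steps, with circles for replicates 1 and 2, triangles for replicates 3 and 4 and a line through the means. *Ccnd1* dropped from a mean of 487 at 24 h to 44.3 at 48 h while *Ccnd2* went from 11.8 to 442, and *Ccnd3* stayed between 707 and 1452 in every sample.

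To compare levels between genes, counts were divided by the length of the gene's exons in kb. On this scale the 3 D-type cyclins summed to 434 ± 50.8 (SD, n = 4) at 0 h and to 215 ± 19.3 by 24 h. The sum was lowest at 48 h (172 ± 6.49) and reached 250 ± 24.3 by 96 h. *Ccnd1* made up 67.2% ± 8.71 of that sum at 0 h, 48.0% ± 1.90 at 24 h and 5.48% ± 0.319 at 48 h. *Ccnd2* went from 0.476% ± 0.347 at 0 h to 27.5% ± 5.89 at 48 h and 36.4% ± 2.80 at 96 h. *Ccnd3* was the largest of the 3 from 24 h on, with shares of 51.4% ± 1.54, 67.0% ± 5.89 and 58.2% ± 3.16 at 24, 48 and 96 h. *Ccnd1* itself went from 294 ± 65.7 counts per kb in uninduced cells to 9.41 ± 0.696 by 48 h, when *Ccnd2* stood at 46.9 ± 8.46. With the longest transcript in place of all exons, *Ccnd1* made up 53.7% and *Ccnd3* 45.8% of the sum at 0 h, and 3.45% and 76.1% at 48 h.

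**Figure D3:**
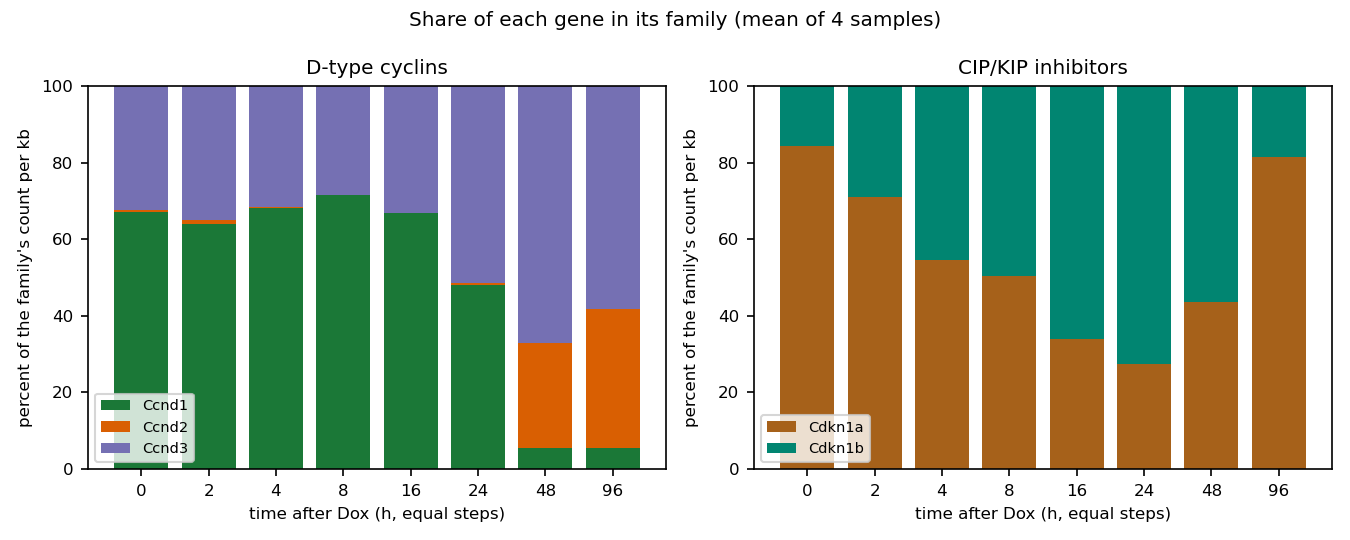
Mean share (percent, 4 samples) of each gene in the summed count per kb of exon of its family, for D-type cyclins (left) and CIP/KIP inhibitors (right), at the 8 time points. The *Ccnd1* share shrank from 67.2% at 0 h to 5.48% at 48 h while *Ccnd2* reached 36.4% at 96 h, and the *Cdkn1a* share went from 84.4% at 0 h to 27.3% at 24 h and 81.6% at 96 h.

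*Ccne1*, the more abundant E-type cyclin per kb at every time point, encodes cyclin E1 (chromosome 7, 38097984 to 38107534, minus strand). Its counts were 1521, 1395, 1096 and 1152 at 0 h and 2484, 2502, 2038 and 2021 at 16 h, with no overlap. *Ccne1* was higher by 0.52 (SE 0.13, limma adjusted p = 0.00124) at 8 h and by 0.81 (SE 0.13, limma adjusted p = 3.24e-06) at 16 h than at 0 h, in both sets. At 48 h it was back to 1012, 1063, 1075 and 1138, below all samples from 8 to 24 h. The fall from 24 to 48 h was 0.99 on the log2 scale (SE 0.13, limma adjusted p = 1.27e-07). The call of a lower level at 48 h than at 0 h (-0.26) was lost without replicate 1 or 2 (limma adjusted p = 0.37 and 0.205). Its means, from low to high, were 1072 ± 52.0 (48 h), 1136 ± 69.4 (96 h), 1291 ± 201 (0 h), 1336 ± 172 (2 h), 1513 ± 271 (4 h), 1860 ± 379 (8 h), 2131 ± 82.4 (24 h) and 2261 ± 268 (16 h). Neighbours in this order overlapped throughout, and replicates 1 and 2 lay above replicates 3 and 4 from 0 to 16 h. From 16 to 24 h the pooled difference was not called (-0.08, SE 0.13, limma adjusted p = 0.714). In replicates 3 and 4 the 24 h level was the higher (0.11), and in replicates 1 and 2 the lower (-0.27).

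*Ccne2*, which encodes cyclin E2 (chromosome 4, 11191351 to 11204779, plus strand), followed another course. It had 430, 396, 402 and 346 counts at 24 h, and 234, 230, 215 and 233 by 48 h. The 96 h samples had 540, 535, 488 and 546, so the 3 time points did not overlap. It fell by 0.78 (SE 0.16, limma adjusted p = 0.000143) from 24 to 48 h and rose by 1.21 (SE 0.16, limma adjusted p = 2.95e-07) from 48 to 96 h. At 96 h it was 0.91 above 0 h (SE 0.16, limma adjusted p = 7.75e-06). The early rise at 2 h (0.43) was lost without replicate 2 (limma adjusted p = 0.128). The share of *Ccne2* in the E-type cyclins, per kb, was 14.3% ± 0.549 (SD, n = 4) in uninduced cells, 9.56% ± 0.383 at 16 h and 26.1% ± 1.08 by 96 h. From low to high, *Ccne2* had means of 228 ± 8.98 (48 h), 254 ± 54.5 (8 h), 284 ± 53.8 (0 h), 299 ± 67.2 (4 h), 313 ± 28.9 (16 h), 386 ± 99.7 (2 h), 393 ± 35.1 (24 h) and 528 ± 26.6 (96 h), and only the 96 h samples were clear of their neighbour. *Ints8* on the opposite strand shares 609 exon bases with *Ccne2*, and its mean lay between 692 and 902.

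*Cdkn1a* encodes p21, a CIP/KIP inhibitor and a well-known target of p53 (chromosome 17, 29090976 to 29100727, plus strand). Uninduced cells had 1250, 1295, 1719 and 1658 counts, the 2 h samples 586, 563, 720 and 698, and the 24 h samples 118, 128, 203 and 187. At 48 h there were 311, 262, 499 and 495 counts, which grew to 901, 894, 1712 and 1808 by 96 h. In every sample at 2 h the level was under that of every sample at 0 h, and replicates 3 and 4 lay above replicates 1 and 2 at all 8 time points.

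It was lower at 2 h by 1.20 (SE 0.23, limma adjusted p = 0.000109), at 4 h by 1.99 (SE 0.23, limma adjusted p = 3.7e-08) and at 24 h by 3.24 (SE 0.23, limma adjusted p = 4.72e-13), always against 0 h. It rose by 1.28 (SE 0.23, limma adjusted p = 3.02e-05) from 24 to 48 h and by 1.74 (SE 0.23, limma adjusted p = 3.33e-07) from 48 to 96 h, in both sets. Among the cells in serum, 96 h stood 0.98 above 2 h (SE 0.23, limma adjusted p = 0.000385). At 96 h the level did not pass the test against 0 h (-0.22, SE 0.23, limma adjusted p = 0.393), and the sets gave -0.50 (replicates 1 and 2, limma adjusted p = 5.13e-05) and 0.06 (replicates 3 and 4). The steps from 2 to 4 h (-0.79) and from 8 to 16 h (-0.91) were called. Both were also called in replicates 1 and 2 alone (-0.87 and -1.02) and in replicates 3 and 4 alone (-0.70 and -0.80). They were not called when each replicate set was averaged to 1 value (limma adjusted p = 0.302 and 0.261). That fit leaves 2 values per time point. Like the main fit it has no term for the set, so the steady difference between the sets counts as spread in both. Ordered by mean, *Cdkn1a* stood at 159 ± 42.4 (24 h), 173 ± 39.7 (16 h), 322 ± 48.0 (8 h), 375 ± 71.2 (4 h), 392 ± 123 (48 h), 642 ± 78.7 (2 h), 1329 ± 500 (96 h) and 1481 ± 242 (0 h). Samples did not overlap between 16 and 8 h, between 48 and 2 h, or between 2 and 96 h, and the other neighbours in this order did.

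Promoter sequences from RefSeq, on GRCm38.p6, were matched for 7 of the 10 members, with 11 start sites, and those of *Ccnd1*, *Ccnd2* and *Ccne2* were not analysed here. The 250 bases before each start were searched on both strands for GATAA (bound by GATA factors), TGANTCA (AP-1), TGACGTCA (CREB and ATF factors), TTTCCCGC and TTTGGCGC (E2F), GGGCGG (SP factors), TCAAAG (TCF) and the p53 decamer, the repeated unit of p53 sites. The p53 decamer occurred in 1 of the 11 windows, at the upstream start of *Cdkn1a*, where 2 copies began 73 and 51 bases before the start, and in 7.13% of all 32851 windows. Both windows of *Cdkn1a* are printed because this gene changed the most at 2 h among the members, with matches in capitals (the p53 decamer in the first window and GGGCGG in the second). They lie at chr17:29090729-29090978 and chr17:29093519-29093768, on the plus strand.
Cdkn1a, upstream start: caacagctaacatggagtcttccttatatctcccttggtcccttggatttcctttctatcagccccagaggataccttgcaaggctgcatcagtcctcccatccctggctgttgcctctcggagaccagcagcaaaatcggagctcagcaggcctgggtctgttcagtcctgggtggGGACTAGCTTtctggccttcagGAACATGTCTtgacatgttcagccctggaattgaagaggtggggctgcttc
Cdkn1a, downstream start: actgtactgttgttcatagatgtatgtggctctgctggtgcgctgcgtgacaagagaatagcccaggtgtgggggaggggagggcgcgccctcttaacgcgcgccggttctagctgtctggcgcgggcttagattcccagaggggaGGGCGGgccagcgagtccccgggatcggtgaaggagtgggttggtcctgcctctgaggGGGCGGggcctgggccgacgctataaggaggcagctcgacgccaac

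Other members of the p53 pathway were read from a list of 10 genes that leaves *Cdkn1a* out. None was higher and 6 were lower at 2 h than at 0 h (22.2% and 22.6% of all genes), and 9 of the 10 were lower at 24 h, when 30.7% of all genes tested were lower. The median log2 difference of the list was -0.29 at 2 h and -0.68 at 24 h, beside -0.03 and 0 over all genes tested. *Phlda3*, a p53 target that restrains AKT, fell from a mean of 456 to 219 at 2 h (-1.06, SE 0.15, limma adjusted p = 1.91e-06), and *Zmat3*, a p53 target that binds RNA, from 818 to 488 (-0.74, SE 0.11, limma adjusted p = 2.45e-06). From 2 to 96 h, 6 were higher and 2 were lower (37.6% and 39.4% of all genes). *Phlda3* rose by 2.12 (SE 0.15, limma adjusted p = 1.88e-13) and *Ccng1*, a cyclin G that p53 induces, by 1.77 (SE 0.09, limma adjusted p = 1.95e-17). The 2 lower genes were *Trp53*, which encodes p53 itself (from a mean of 2875 to 687, -2.08, SE 0.15, limma adjusted p = 1.81e-13), and *Bax*, a promoter of cell death (-0.45, SE 0.08, limma adjusted p = 1.55e-05). Leaving out single replicates gave 4 to 6 lower genes at 2 h, the fewest without replicate 3, and 8 or 9 at 24 h. With each replicate set averaged to 1 value, 3 were lower at 2 h and 8 at 24 h. Here and for the lists below, shares of all genes are those of the main fit. Shares under the alternatives are not given, so a lower count there is not a result about the list.

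*Cdkn1b* encodes p27, the other CIP/KIP member measured here (chromosome 6, 134920401 to 134925513, plus strand). Uninduced cells had 334, 330, 351 and 366 counts and the 24 h samples 607, 591, 498 and 478. The level reached 702, 720, 574 and 544 by 48 h and was back at 364, 343, 316 and 377 by 96 h. The samples at 24 and 48 h lay above all those at 0 and 96 h. It was higher than at 0 h by 0.65 (SE 0.13, limma adjusted p = 0.000152) at 24 h and by 0.87 (SE 0.13, limma adjusted p = 1.44e-06) at 48 h, and it fell by 0.85 (SE 0.13, limma adjusted p = 5.68e-06) from 48 to 96 h, in both sets. The call of a higher level at 16 h than at 0 h was lost without replicate 2, 3 or 4 (limma adjusted p = 0.118, 0.307 and 0.159). Its means were 338 ± 72.0 (2 h), 345 ± 16.8 (0 h), 350 ± 26.6 (96 h), 396 ± 50.4 (4 h), 404 ± 58.5 (8 h), 425 ± 72.3 (16 h), 543 ± 64.9 (24 h) and 635 ± 89.0 (48 h), with overlap between all neighbours in this order.

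Per kb, *Cdkn1a* made up 84.4% ± 1.63 (SD, n = 4) of the sum of both in uninduced cells. Its share was 27.3% ± 7.58 at 24 h, 43.6% ± 11.3 by 48 h and 81.6% ± 5.93 by 96 h. The sum itself went from 493 ± 71.4 in uninduced cells to 142 ± 26.9 at 16 h and 451 ± 140 by 96 h. The mean share of *Cdkn1b* was the larger at 16 and 24 h with either length. At 48 h the order turned on the length, with *Cdkn1b* at 56.4% ± 11.3 by all exons and 43.6% ± 11.3 by the longest transcript.

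**Figure D4:**
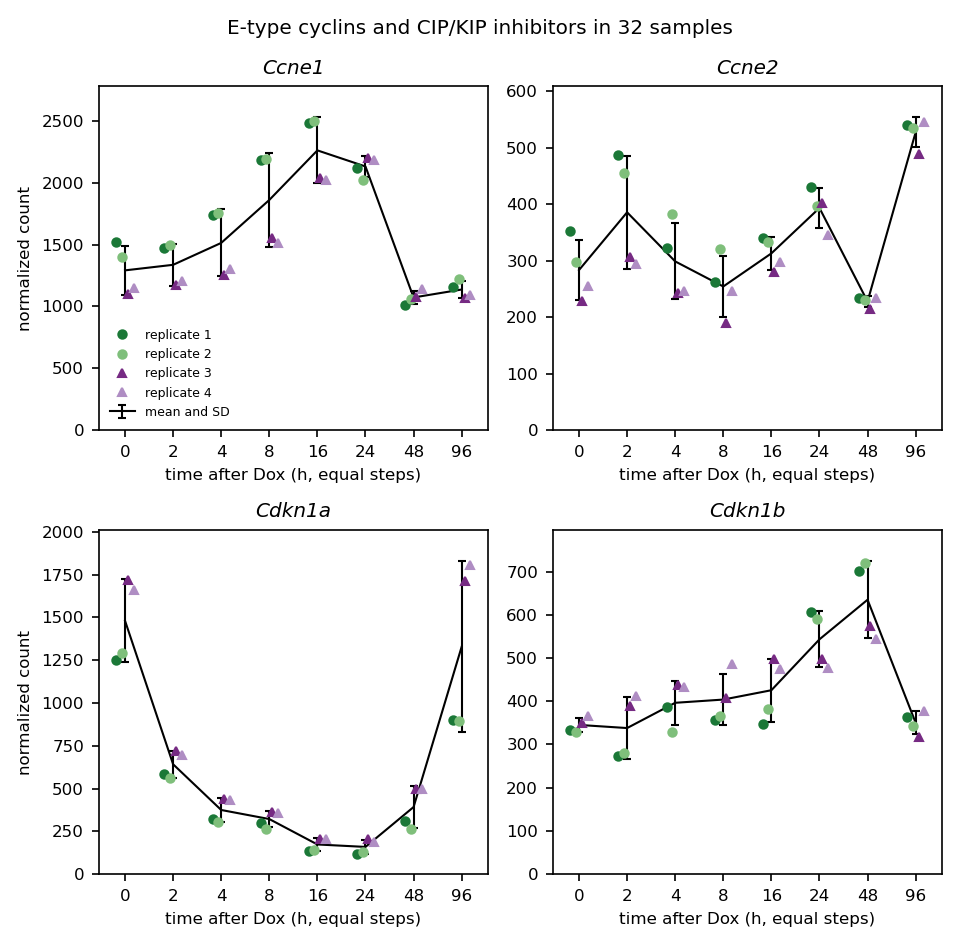
Normalized counts of *Ccne1*, *Ccne2*, *Cdkn1a* and *Cdkn1b* in every sample at the 8 time points, drawn at equal steps, with circles for replicates 1 and 2, triangles for replicates 3 and 4, and the mean ± SD in black. By mean, *Ccne1* was highest at 16 h (2261, beside 2131 at 24 h), *Ccne2* was highest at 96 h (528), *Cdkn1a* was lowest at 24 h (159) and *Cdkn1b* was highest at 48 h (635).

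*Cdkn2a* encodes 2 proteins from different first exons, the INK4 inhibitor p16INK4a and ARF, which protects p53 from MDM2, and the count of the gene holds both (chromosome 4, 89274471 to 89294653, minus strand). Uninduced cells had 200, 179, 149 and 142 counts, the 2 h samples 131, 125, 130 and 111, and the 16 h samples 60.9, 89.6, 78.5 and 79.4. All 28 later samples lay below the lowest sample at 0 h. It was lower by 0.42 (SE 0.14, limma adjusted p = 0.0217) at 2 h, by 1.11 (SE 0.14, limma adjusted p = 1.83e-07) at 16 h and by 1.20 (SE 0.14, limma adjusted p = 1.04e-08) at 96 h. The 2 h call was lost without replicate 2 (limma adjusted p = 0.104). Among the cells in serum, 96 h was 0.79 below 2 h on the log2 scale (difference -0.79, SE 0.14, limma adjusted p = 1.52e-05), in both sets. The means were 70.0 ± 7.37 (48 h), 72.4 ± 13.1 (96 h), 77.1 ± 11.9 (16 h), 82.1 ± 11.3 (24 h), 106 ± 6.00 (8 h), 111 ± 19.3 (4 h), 124 ± 9.32 (2 h) and 168 ± 27.2 (0 h). Neighbours in this order overlapped, except 24 and 8 h and, at the top, 2 and 0 h.

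*Cdkn2b*, the neighbour of *Cdkn2a* 11.6 kb away on the same strand (89306299 to 89311039), encodes p15INK4b and was scarcer. It had 24.8, 19.7, 26.6 and 22.7 counts in uninduced cells, 13.0, 13.8, 7.32 and 12.1 after 16 h, and 18.0, 29.4, 25.1 and 36.9 after 96 h. The samples at 16 h lay below all those at 0 and 96 h. It was lower than at 0 h by 0.84 (SE 0.23, limma adjusted p = 0.0039) at 8 h and by 0.99 (SE 0.23, limma adjusted p = 0.000736) at 16 h, and at 96 h it did not pass the test (0.18, SE 0.23, limma adjusted p = 0.496). The 8 h call was lost in replicates 1 and 2 alone (limma adjusted p = 0.263), the 24 h call (-0.59) without replicate 1 or 4 (0.144 and 0.115), and the call of a rise from 24 to 48 h (0.50) without replicate 1, 2 or 4 (0.229, 0.162 and 0.232). Means from low to high were 11.6 ± 2.93 (16 h), 13.0 ± 3.83 (8 h), 15.2 ± 2.02 (24 h), 18.8 ± 3.86 (4 h), 22.1 ± 4.00 (48 h), 23.5 ± 2.97 (0 h), 25.0 ± 1.88 (2 h) and 27.4 ± 7.89 (96 h), and all neighbours overlapped.

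*Cdkn2c* encodes p18INK4c (chromosome 4, 109660876 to 109667189, minus strand) and had 12.4, 10.2, 25.8 and 30.2 counts in uninduced cells. There were 20.8, 11.3, 14.1 and 15.6 counts after 2 h, and 35.0, 32.6, 21.3 and 34.0 after 96 h. The samples at 96 h lay above all those at 2 h but overlapped those at 0 h. From 2 to 96 h it rose by 0.95 (SE 0.32, limma adjusted p = 0.00797), in both sets. Against 0 h the 96 h level was higher in replicates 1 and 2 (1.51) but not in replicates 3 and 4 (-0.048), and the pooled call (0.73, limma adjusted p = 0.0396) was lost without replicate 1 or 2 (0.263 and 0.2). The 24 h call (0.71) was likewise lost without replicate 1 or 2 (limma adjusted p = 0.238 and 0.171). Its means were 15.4 ± 3.97 (2 h), 15.5 ± 5.96 (4 h), 19.7 ± 9.85 (0 h), 21.7 ± 7.97 (16 h), 22.0 ± 5.80 (8 h), 25.9 ± 6.05 (48 h), 30.0 ± 4.00 (24 h) and 30.7 ± 6.35 (96 h), again with overlap between all neighbours.

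**Figure D5:**
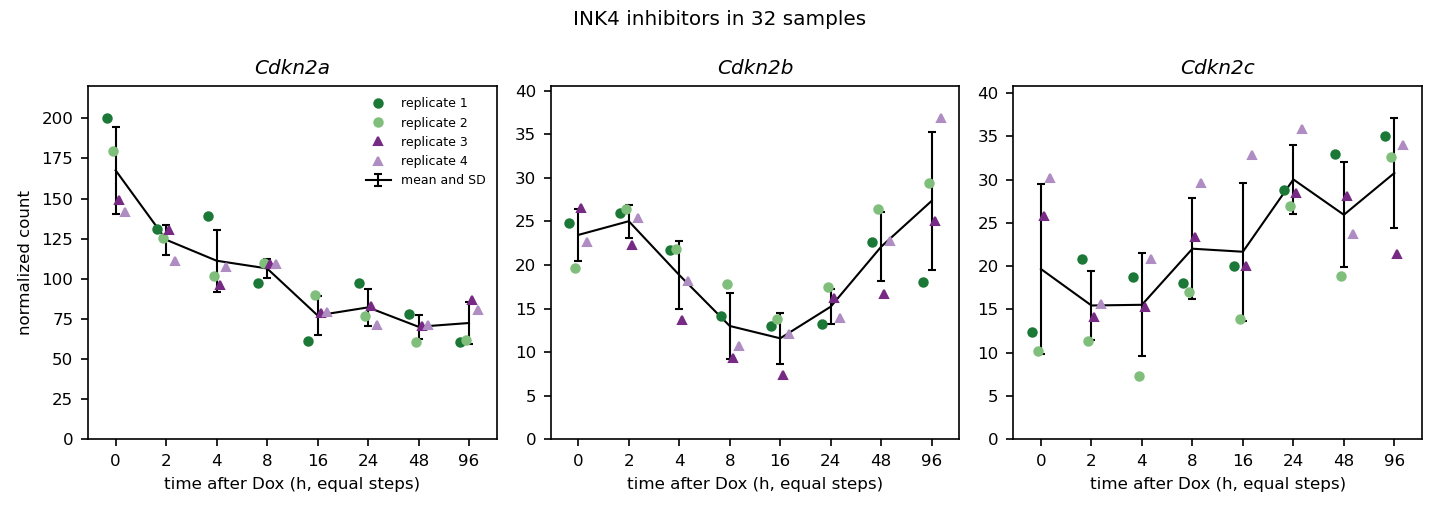
Normalized counts of the 3 INK4 inhibitors in every sample at the 8 time points, drawn at equal steps, with circles for replicates 1 and 2, triangles for replicates 3 and 4, and the mean ± SD in black. *Cdkn2a* went from a mean of 168 at 0 h to 70.0 at 48 h, *Cdkn2b* was lowest at 16 h (11.6) and *Cdkn2c* rose from 15.4 at 2 h to 30.7 at 96 h.

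The starts of the INK4 genes on chromosome 4 are printed to show which starts the *Cdkn2a* count joins, with ARF transcripts beginning at the upstream start and p16INK4a transcripts at the downstream one, 12427 bases apart. The windows lie at chr4:89294620-89294869 (*Cdkn2a*, upstream), chr4:89282193-89282442 (*Cdkn2a*, downstream) and chr4:89311033-89311282 (*Cdkn2b*), all on the minus strand. Capitals mark TTTCCCGC and GGGCGG in the first window and TGACGTCA in the third, and the second held no match.
Cdkn2a, upstream start: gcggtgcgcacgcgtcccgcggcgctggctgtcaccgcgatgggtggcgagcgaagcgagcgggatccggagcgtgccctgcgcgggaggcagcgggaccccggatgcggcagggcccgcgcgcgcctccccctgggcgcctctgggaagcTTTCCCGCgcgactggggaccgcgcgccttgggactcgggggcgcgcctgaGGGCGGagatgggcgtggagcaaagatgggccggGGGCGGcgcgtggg
Cdkn2a, downstream start: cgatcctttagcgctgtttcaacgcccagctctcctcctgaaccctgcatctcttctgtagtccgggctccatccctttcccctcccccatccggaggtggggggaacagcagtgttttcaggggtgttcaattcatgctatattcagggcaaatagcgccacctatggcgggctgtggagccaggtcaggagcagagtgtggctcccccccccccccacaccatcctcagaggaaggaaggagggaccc
Cdkn2b: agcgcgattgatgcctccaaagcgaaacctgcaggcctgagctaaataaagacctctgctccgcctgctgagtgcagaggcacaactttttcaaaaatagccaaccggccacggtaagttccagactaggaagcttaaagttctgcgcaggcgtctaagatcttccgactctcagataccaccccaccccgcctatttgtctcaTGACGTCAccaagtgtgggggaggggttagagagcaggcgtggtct

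TTTCCCGC began 99 bases before the upstream start of *Cdkn2a* and occurred in no other window of a member, beside 0.895% of all windows. TGACGTCA, 46 bases before the start of *Cdkn2b*, occurred in 1.55% of all windows. GGGCGG was in 7 of the 11 windows, beside 32.7% of all, with 4 copies before *Ccne1* and 3 before the upstream start of *Cdkn2c*. The G and C content of the windows ranged from 42.8% to 78.4%. The motif GATAA was in none of the 11, beside 22.6% of all windows. The same held for TGANTCA (6.75% of all windows), TTTGGCGC (0.417%) and TCAAAG (13.8%). No 2 matches overlapped. A match is a run of letters only and says nothing of binding.

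Per kb, *Cdkn2a* made up most of the INK4 sum at every time point, 85.2% ± 4.31 (SD, n = 4) at 0 h and 66.4% ± 5.49 at 96 h. The sum went from 167 ± 19.8 in uninduced cells to 82.2 ± 10.3 at 16 h and 92.9 ± 13.5 by 96 h.

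The kinases and pocket proteins on which the members act were read from a list of 15 genes (G1 kinases, the RB family and their regulators). At 2 h against 0 h, 4 were higher and 3 were lower, beside 22.2% and 22.6% of all genes tested, with a median log2 difference of 0.02. With single replicates left out, 1 or 2 were lower, and with each replicate set averaged to 1 value, 1 was higher and 1 lower. The largest rises were those of *Rb1* (0.56, SE 0.20, limma adjusted p = 0.0264), which encodes RB, and *Cdk7* (0.32, SE 0.08, limma adjusted p = 0.00215), the kinase that activates other CDKs. The largest falls were those of *Cdkn2d* (-0.40, SE 0.11, limma adjusted p = 0.00322), another INK4 gene, and *Rbl1* (-0.25, SE 0.09, limma adjusted p = 0.0301), a relative of RB. The calls of *Rb1* and *Rbl1* were lost without replicate 2 (limma adjusted p = 0.137 and 0.113), and that of *Rbl1* also without replicate 4 (0.102). The others called were *Cdk2* (0.23), *Skp2* (0.18) and *Cdk4* (-0.18), of which *Skp2* was lost without replicate 1 or 3 (limma adjusted p = 0.199 and 0.351) and *Cdk4* without any 1 of the replicates (0.104 to 0.19).

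From 2 to 96 h, 5 of the 15 were higher and 6 were lower (37.6% and 39.4% of all genes), with a median of -0.04, and set means gave 3 and 5. *Cdk6*, a partner of the D-type cyclins, had a mean of 538 at 2 h, which went to 136, 49.0 and 29.1 at 24, 48 and 96 h, and its fall from 2 to 96 h was 4.16 on the log2 scale (SE 0.15, limma adjusted p = 8.87e-21). *Rbl1* fell as well (-0.98, SE 0.09, limma adjusted p = 3.88e-11). The largest rise was that of *Cdkn1c*, the CIP/KIP gene of p57, with a mean of 20.5 at 2 h, 209 at 48 h and 310 at 96 h (3.29, SE 0.48, limma adjusted p = 3.93e-07), where its samples ranged from 61.5 to 557. *Cdkn2d* rose by 0.82 (SE 0.11, limma adjusted p = 3.98e-08) and *Cdk2*, the partner of E-type cyclins, by 0.26 (limma adjusted p = 0.000559). The other higher genes were *Cks1b* (0.27, lost without replicate 4 with limma adjusted p = 0.12) and *Rbl2* (0.38, lost without replicate 1 or 2 with 0.166 and 0.142).

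Of the 10 E2F and DP factors, which switch on or repress replication genes, 2 rose and 3 fell between 0 and 2 h (22.2% and 22.6% of all genes), and 2 rose and 5 fell between 2 and 96 h (37.6% and 39.4%). Set means gave 2 and 1, then 1 and 4. The rises at 2 h were those of *E2f7* (0.62, SE 0.13, limma adjusted p = 0.000447) and *E2f8* (0.54, SE 0.14, limma adjusted p = 0.00355), both repressors. The falls were those of the DP factors *Tfdp2* (-0.59, SE 0.12, limma adjusted p = 0.000259) and *Tfdp1* (-0.34) and of *E2f1* (-0.39, SE 0.14, limma adjusted p = 0.0231), the last of which was lost without replicate 1 (0.105). From 2 to 96 h, *E2f2*, an activator, fell from a mean of 155 to 20.5 (-2.86, SE 0.19, limma adjusted p = 2.58e-14), though its mean was 448 at 16 h. Between the same 2 time points, *E2f1* fell from 358 to 172 (-1.05, SE 0.14, limma adjusted p = 5.2e-08). *E2f6*, a repressor, rose from 416 to 774 (0.91, SE 0.12, limma adjusted p = 5.89e-08), while the rise of *E2f7* (0.32) was lost without replicate 3 (limma adjusted p = 0.192). *E2f4* (-0.65), *E2f3* (-0.40) and *E2f5* (-0.21) were the other lower genes, and the call of *E2f5* was lost without replicate 1, 3 or 4 (0.13, 0.144 and 0.152).

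Of 14 genes of S phase and replication licensing, 5 rose and 4 fell between 0 and 2 h, beside 22.2% and 22.6% of all genes tested. With each replicate set averaged to 1 value, 2 rose and none fell. Between 2 and 96 h, 2 rose and 11 fell (37.6% and 39.4% of all genes), with the same counts from set means. The list's median log2 difference from 2 to 96 h was -0.83, beside -0.04 over all genes tested. *Pcna*, the clamp of DNA polymerase, rose from a mean of 2853 to 3734 at 2 h (0.39, SE 0.09, limma adjusted p = 0.000647) and was at 1351 at 96 h (-1.46 against 2 h, SE 0.09, limma adjusted p = 1.98e-15). *Rrm2*, which makes deoxynucleotides, also rose at 2 h (0.28, SE 0.07, limma adjusted p = 0.00283), as did *Ccna2* (0.27), *Mcm4* (0.26) and *Mcm3* (0.17, lost without replicate 4 with limma adjusted p = 0.124). *Orc1* (-0.29), *Gmnn* (-0.32), *Cdt1* (-0.21) and *Mcm7* (-0.14) were lower at 2 h in the pooled fit, but each call was lost without single replicates. The adjusted p then was 0.139 for *Orc1* (without replicate 3), 0.133 for *Gmnn* (without replicate 1), 0.188 for *Cdt1* (without replicate 4) and 0.131 to 0.251 for *Mcm7* (without any 1 of the 4). With single replicates left out, 2 or 3 genes of the list were lower. *Mcm3*, of the replicative helicase, fell by 1.28 from 2 to 96 h (SE 0.06, limma adjusted p = 4.3e-18). The 2 higher genes at 96 h were *Cdc6*, which loads that helicase (0.74, SE 0.08, limma adjusted p = 1.7e-09), and *Ccna2*, which encodes cyclin A2 (0.56, SE 0.08, limma adjusted p = 1.74e-07).

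Of 12 genes of G2 and mitosis, 7 were higher and 1 lower at 2 h than at 0 h (22.2% and 22.6% of all genes), and set means gave 6 and 0. *Foxm1*, a factor that drives mitotic genes (0.68, SE 0.12, limma adjusted p = 3.45e-05), and *Mki67*, the gene of the proliferation marker Ki-67 (0.66, SE 0.09, limma adjusted p = 3.82e-07), rose the most. The lower gene was *Ccnb2* (-0.14), whose call was lost without replicate 1 or 2 (limma adjusted p = 0.568 and 0.224). From 2 to 96 h (37.6% of all genes higher and 39.4% lower), 2 were higher, *Cenpe* (0.52, SE 0.05, limma adjusted p = 4.87e-10) and *Mki67* (0.46, SE 0.09, limma adjusted p = 2.43e-05), and 8 were lower, with the largest falls in *Top2a* (-0.67, SE 0.05, limma adjusted p = 8.47e-13) and *Ccnb1* (-0.63, SE 0.05, limma adjusted p = 1.12e-11). Set means gave 2 higher and 5 lower. The course between was not a steady fall. Against 0 h, 11 of the 12 were higher at 24 h and 10 at 48 h, and none was lower. Of all genes, 61.8% and 73.4% were called in either direction then. At 24 h, set means gave 7 higher. From 48 to 96 h, 8 were lower and none higher (54.5% of all genes called in either direction).

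The genes whose course was most like that of each member were found by Pearson's r over the 8 time-point means of log2(normalized count + 1), among 9881 genes outside the lists with a mean of at least 100 at their highest time point. The 8 points share the same libraries, and r is a description. *Pfas* (r = 0.995) and *Pcolce2* (0.995) were closest to *Ccnd1*, with 202 genes over 0.95, and *2610002M06Rik* (0.994) and *Tpp1* (0.992) to *Ccnd2*, with 103. *Dgkd* (0.990) and *Cct4* (0.981) were closest to *Ccne1*, *Rap1gap* (0.990) and *Wrap73* (0.976) to *Cdkn1a*, and *Tulp3* (0.976) and *Dnase2a* (0.972) to *Cdkn2a*. For *Ccne2* only *Psmb2* (0.988) exceeded 0.95, followed by *Pop5* (0.936). *Nemp2* (0.976) and *Tmem9* (0.958) were closest to *Cdkn1b*, *1110008P14Rik* (0.972) and *Map2k2* (0.965) to *Ccnd3*, *Tmem18* (0.965) and *Osbpl7* (0.963) to *Cdkn2b*, and *Trip4* (0.974) and *Clip1* (0.962) to *Cdkn2c*. *Rap1gap* had a mean of 136 at 0 h, 16.4 at 24 h and 120 at 96 h.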

How the data were processed

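Polyadenylated RNA of 32 samples was read with 50-base single reads from a stranded kit. Per the submitters' processing notes and the study's methods, the authors used FastQC 0.11.8, cutadapt 2.7, HISAT2 2.1.0 on GRCm38.p6 and featureCounts (Subread 1.6.4). The deposited values are variance-stabilized log2 values that the authors made with DESeq2. Their scale was inverted to normalized counts, and dividing by the value of 1 read gave whole reads for 100% of values (within 0.001). Names absent from the table were added by gene ID for 29046 of 29140 rows. limma 3.58.1 (R 4.3.3) with a mean-variance trend was fitted to log2(normalized count + 1), all 32 samples, no block, with Benjamini-Hochberg adjustment per comparison and an FDR of 0.1 (4-fold where stated). The fit was tested on simulated data. Lengths and coordinates are those of GENCODE on GRCm38. Alternatives were the pseudocount, the filter, trimmed-mean (TMM) scaling, a replicate block, single comparisons, each replicate left out, each replicate set alone or averaged, the deposited values, and limma-voom. Named genes are the 10 members, the 2 most similar genes per member, and the 2 largest rises and falls per list at 2 h against 0 h and 96 h against 2 h. In the main fit of these 2 comparisons, all genes of a list's count of 5 or fewer are named too. Members and lists were chosen with earlier results of these data known. Intervals cover counting error only.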

Additional observations from a re-analysis of the deposited data

Results flagged for a closer look

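*Cdkn2a* at 8 h was 97.4 normalized counts in replicate 1, below 109, 109 and 110 in the others. The gap to the nearest sample was 0.924 of the range of the 4, above Dixon's 95% critical value. It was the only such case among 80 groups of 4 samples (10 genes at 8 time points), and chance gives about 1 in 20. The difference from 0 h at 8 h (-0.64) was called under every alternative.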

How the results depend on the processing

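Of 2212 alternative values of the members' log2 differences, 2020 kept their side of the threshold. These include 47 that changed sign without a call in either fit. Of the others, 110 lost the call, 76 gained one and 6 reversed, with a call in at least 1 of the 2 fits. The reversals were all within 1 replicate set: in replicates 3 and 4, *Ccnd2* at 24 h against 0 h (1.29), *Cdkn2c* at 96 h against 0 h (-0.048), *Ccne1* at 24 h against 16 h (0.11) and *Cdkn1b* at 96 h against 2 h (-0.21), and in replicates 1 and 2, *Ccnd3* at 24 and 48 h against 0 h (0.050 and 0.18). Same-numbered samples did not deviate together more than others of the set (mean correlation 0.25 and 0.252, against -0.251 between sets), so the numbers are no pairs. A fit with replicate number as block raised the members called from 1 to 3 (4 h against 2 h), 1 to 2 (8 h against 4 h) and 2 to 5 (16 h against 8 h). Counts of members called that moved by over 1.5 times were as follows. At 2 h against 0 h (5) there were 3 with only those 2 time points in the fit, 2 with set means and 2 to 5 with a replicate left out, the lowest without replicate 2. Set means gave 2 at 4 h (4), 5 at 24 h (9) and 5 at 48 h (8), all against 0 h, where no filter and TMM scaling gave 5 at 48 h as well, and replicates 1 and 2 alone gave 8 at 96 h (5). At 4 h against 2 h (1), replicates 1 and 2 gave 5, replicates 3 and 4 gave 4, set means 0, a pseudocount of 4, the deposited values and limma-voom 2 each, and a replicate left out 1 to 2. At 8 h against 4 h (1), each set alone gave 3, a pseudocount of 4, set means and limma-voom 0, and a replicate left out 0 to 1. At 16 h against 8 h (2), the sets gave 4 and 5, set means 0, limma-voom 4, and a replicate left out 1 to 2. At 24 h against 16 h (3), no filter and set means gave 1 and replicates 3 and 4 gave 5. Set means leave 2 values per time point in a fit without a term for the set, and a set alone leaves the other out. Shares of all genes called under the alternatives are not given, so these counts cannot be set beside them. TMM scaling moved the median of all genes by at most 0.026. At low depth, *Ccnd2* from 4 to 24 h, *Cdkn2b* and *Cdkn2c* rest on few reads.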
